A study of Gallus gallus with 16 samples.

Results

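The genes described here are the interleukins, the chemokines, the colony-stimulating factors and their receptors of chicken granulosa cells. They were taken by symbol, as every gene row whose name begins with IL, CCL, CXCL, CX3C, XCL, CCR, CXCR, ACKR or CSF and a number or family letter, with LIF and TNFAIP3 added. A row was kept when it had at least 10 counts in at least 4 of the 16 libraries. Of 98 rows with such a name, 65 met this minimum, out of 18151 gene rows in all and 14856 with the same minimum. The 65 members were 9 chemokine ligands, 11 chemokine receptors, 12 interleukin ligands, 26 interleukin receptors and accessory proteins, 3 colony-stimulating factors with LIF counted among them, and 4 other proteins. Apart from this minimum, no measured value entered the rule. CCR9, CCL5 and IL18RAP were just inside it, with 10 counts or more in 4 libraries only. Just outside it were CCL1 and CCL28, which reached 10 counts in 3 libraries each and had at most 15 and 22 counts in a library.

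RNA-Seq was carried out on primary granulosa cells from the follicles of White Leghorns aged 25 to 30 weeks, for which 4 hens were killed. Cells from pre-ovulatory follicles (poGC) and from pre-hierarchical small yellow follicles (phGC) were cultured in 5% serum for 16 h, transfected by Lipofectamine with an siRNA against FOXL2 (KD) or with a nonsense siRNA (CT), and collected 48 h later. Each of the 4 groups, named poGC-CT, poGC-KD, phGC-CT and phGC-KD, had 4 libraries and had been through culture and transfection. Whether the 4 libraries of a group came from separate hens or from separate dishes is not stated, so that p-values measure the spread between these libraries, which may be technical.

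KD and CT differed by label only in the siRNA, whose strands are shown because each knockdown result below is a contrast between them. They are written 5′ to 3′ from the supplementary table of the study, with the 2-base DNA overhang in capitals.
FOXL2-siRNA, sense: gccucaacgagugcuucauTT
FOXL2-siRNA, antisense: augaagcacucguugaggcTT
NC-siRNA, sense: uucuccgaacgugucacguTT
NC-siRNA, antisense: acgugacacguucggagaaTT
Each strand had 21 bases, 19 of them in the duplex. A single FOXL2-siRNA was used, and no other siRNA against FOXL2 was compared with it.

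Chemokines are small secreted proteins that draw leukocytes along a gradient through receptors with a bundle of membrane helices, while the atypical receptors of the ACKR group bind chemokines and remove them. Most interleukins act through receptor chains that pair at the cell surface and pass the signal to JAK kinases and STAT factors, whereas the receptors of the IL1 family and of the IL17 family lead to NF-kB. In the ovary, ovulation is known from mammals to share features with inflammation, and granulosa cells are among the cells that make interleukins and chemokines around it. FOXL2 itself is a forkhead transcription factor of granulosa cells.

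The counts per library totalled 29979116 to 56121795, and 44 of the 65 members had at least 10 counts in every library. FOXL2 had 28144, 30976, 31763 and 29872 normalized counts in the poGC-CT libraries and 20579, 18319.7, 19424 and 16121 in the poGC-KD libraries, without overlap. A normalized count is a count divided by the library size that edgeR's TMM method gives and multiplied by the mean of these sizes over the 16 libraries. In phGC, FOXL2 had 19281, 20186, 27843 and 24164 normalized counts in CT and 16362, 20766, 16124 and 14772 in KD, and KD replicate 2 lay above 2 of the CT libraries. FOXL2 fell in poGC to 62.5% of the control level (log2 -0.68, SE 0.079, adjusted p = 0.000353), and stood at 74.1% in phGC without passing the threshold (log2 -0.43, SE 0.14, adjusted p = 0.0878). The difference between both FOXL2 effects did not pass (log2 -0.27, SE 0.17, adjusted p = 0.396). By qRT-PCR on the same RNA, the study reported a significant decrease of FOXL2 in both cell types. It reported a like change of the protein by Western blot. The library labelled phGC-KD replicate 2 was within the range of the control libraries. Without that library, 9 members passed the phGC test described below, 6 higher and 3 lower in KD. Of these, 8 also passed with all libraries, while IL4R was lost and IL9 was gained. The share of all rows called in that fit was not determined.

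Granulosa markers were present in each group, with 13 of the 15 listed genes in the files and none of the 13 at 0. Their summed level overlapped between the poGC groups, at 2366 to 2529.8 CPM (counts scaled to a common library total) in KD and 2353 to 2535 in CT, and was higher in phGC-KD than in phGC-CT, at 3519 to 4123 against 2672 to 3206. By gene, 3 of the 13 passed as higher in poGC-KD and 5 as lower in the KD test described below, beside 15.2 and 13.6 percent of all rows. In phGC 2 of the 13 passed as higher in KD and 0 as lower, beside 5.06 and 4.91 percent. Of the leukocyte list, several markers were at or near 0: SPI1, the highest of SPI1, CD4, CD8A, MARCO and S100A9, had a mean of at most 0.0839 CPM. PTPRC, the pan-leukocyte phosphatase, was low but measured, at group means of 0.494 CPM in phGC-CT to 1.80 in poGC-KD. Other genes of the list were measured at group means of 48.6 to 109.8 CPM (CD74), 14.1 to 18.8 (LCP1), 10.4 to 15.7 (TLR7) and 2.29 to 4.11 (CD3D, a T cell marker), and the remaining 7 had at most 0.748. The summed leukocyte list, most of which was CD74, was lower in KD than in CT, at 107 to 124 against 142 to 155 CPM in poGC and at 78.5 to 94.7 against 99.6 to 107 in phGC. The theca and stroma list summed to 1367 to 1582 in poGC-KD against 2334 to 2574 in poGC-CT, and to 5492 to 6682 in phGC-KD against 6351 to 7070 in phGC-CT. In poGC this sum followed COL3A1, at a mean of 518 CPM in KD against 962 in CT, and ACTA2, at 396 against 897. COL1A1 went the other way, at 144 against 92.9. Of 9 genes of this list tested in poGC, 1 passed as higher in KD and 5 as lower, and of 10 in phGC 0 and 2. The endothelium list overlapped between both poGC groups (40.1 to 72.8 against 48.1 to 78.5) and was lower in phGC-KD, at 35.6 to 47.7 against 54.0 to 70.0. The part of these lists in the results below was not tested, and in such bulk samples fewer cells of a type and less RNA per cell cannot be told apart.

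Members of very different abundance made up the set. Levels of different genes were compared only by the deposited FPKM, which is scaled by transcript length. The row CCL4 row 2, a chemokine of the macrophage inflammatory protein group, was the highest in poGC and over the 16 libraries, with 404 ± 48.4 FPKM in poGC-CT and 300.0 ± 47.5 in poGC-KD (SD, n = 4 libraries), but 36.5 ± 4.56 in phGC-CT and 14.8 ± 1.82 in phGC-KD. The symbol CCL4 is carried by 2 gene rows, here called row 1 and row 2 in their deposited order. Their gene models are not known here, and reads may have been shared between them, which was not tested. IL1RL1, the receptor of the alarmin IL33, came next in poGC, with 148 ± 7.69 FPKM in poGC-CT, and was above it in phGC, with 60.6 ± 1.1 in phGC-CT and 68.0 ± 6.51 in phGC-KD. Behind this pair, IL8L2, IL13RA1, IL34 and IL17RA followed closely, with means over the 16 libraries of 24.3, 23.1, 20.3 and 18.3 FPKM. In the control groups their order changed with the follicle stage: IL13RA1 led among them in poGC-CT (38.8 ± 1.49 FPKM) and IL8L2 in phGC-CT (33.5 ± 7.58 FPKM). The ranges of these 4 over the libraries overlapped, so that their order over the whole set is not firm.

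Most members were scarce. In poGC-CT, 11 of the 65 had a mean of 10 FPKM or more, 20 had 1 to 10 and 34 were under 1, and in phGC-CT these numbers were 10, 15 and 40. Members without a count in any library of a group were CCL4 row 1 and IL12A in phGC-CT, and CCL5 and IL12A in phGC-KD. Among the 33 rows with a matching name that missed the minimum were the inflammatory cytokine IL1B, the anti-inflammatory IL10, the T cell factor IL2 and the ligands IL4 and IL13.

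**Figure D1:**
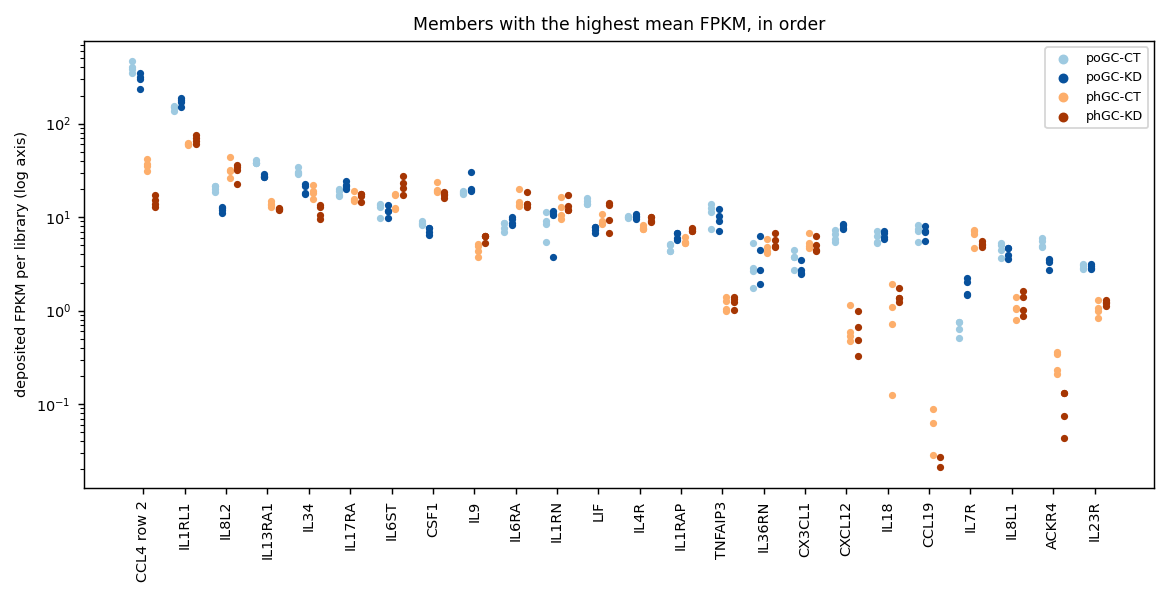
Deposited FPKM per library (log axis) of the 24 members with the highest mean over the 16 libraries, in that order, with points coloured by group and values under 0.01 not drawn. CCL4 row 2 and IL1RL1 stand above the rest in poGC, and the CCL19 and ACKR4 points of phGC lie far below those of poGC.

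To determine which members responded to FOXL2-siRNA, KD was compared with CT in poGC and in phGC. The test was edgeR's quasi-likelihood test over all gene rows, with Benjamini-Hochberg adjustment. A member is said to rise or fall where its adjusted p was under 0.05. In comp. poGC, 7 members rose and 8 fell of 62 tested, which is 24.2%, while 28.8 percent of all tested rows changed. By direction, 11.3% of the members rose beside 15.2 percent of all rows, and 12.9% fell beside 13.6 percent. At this threshold the share of members was thus near that of all genes in poGC. In comp. phGC, 6 members rose and 3 fell of 49 tested, or 18.4%, beside 9.97 percent of all rows, and by direction 12.2% rose beside 5.06 percent and 6.12% fell beside 4.91 percent. The median log2 fold change of the members was -0.02 in poGC and 0.01 in phGC, against 0.01 and -0.01 over all rows tested.

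In poGC, 15 members had no overlap between the KD and the CT values, beside 31.6 percent of all rows. They were the same 15 that changed, 7 higher and 8 lower in KD, beside 15.5 and 16.1 percent. In phGC, 14 members had no overlap beside 18.4 percent of all rows, of which 9 were higher in KD beside 9.39 percent and 5 lower beside 9.01 percent. The number of members that passed the test in phGC, 9 with all libraries, varied when single libraries were left out. It was 4 without phGC-KD replicate 3, 5 without phGC-CT replicate 2 and 4 without phGC-CT replicate 4. Without each of the other libraries it was 6 to 9. The share of all rows called in these fits was not determined, so the fall is not shown to be particular to the members. Members were also counted at an unadjusted p under 0.05 and a fold change above 1.5. In poGC 13 met these criteria, or 21% beside 11.2 percent of all rows. Of them 8 were up and 5 down, or 12.9% and 8.06% beside 5.86 and 5.34 percent. In phGC there were 10, or 20.4% beside 7.27 percent. Of them 5 were up and 5 down, or 10.2% each beside 3.8 and 3.48 percent. How the share of members compared with all rows in poGC thus depended on the threshold. The members that changed in either cell type numbered 19, and 46 changed in neither. CCL5, CCR9 and IL18RAP had too few counts to be tested in either cell type.

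**Figure D2:**
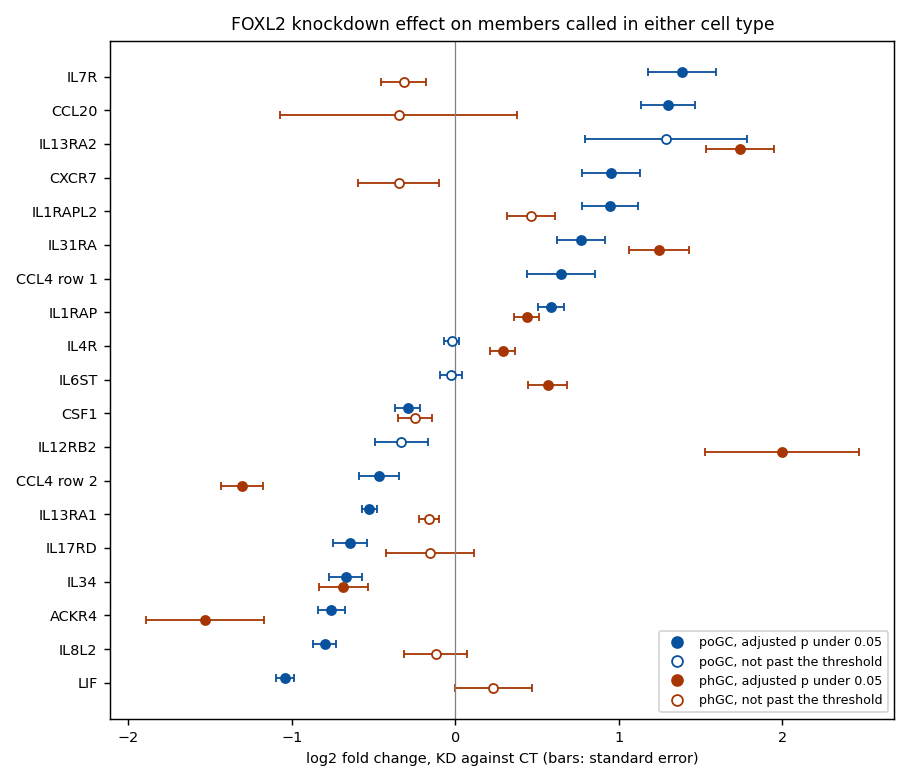
Log2 fold change of KD against CT for the 19 members that changed in at least 1 cell type, in poGC (blue) and phGC (brown), with bars for the standard error and filled points for an adjusted p under 0.05. IL7R (1.39) and LIF (-1.04) mark the ends of the poGC values, while IL12RB2 (2.0) and ACKR4 (-1.53) mark those of phGC.

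Among the chemokine ligands, the abundant CCL4 row fell in both cell types, IL8L2 fell in poGC, and CCL20 rose in poGC. Of 8 ligands tested in poGC, 2 rose and 2 fell, or 25% each beside 15.2 and 13.6 percent of all rows. Of 6 in phGC, 0 rose and 1 fell, the latter 16.7% beside 4.91 percent. CCL4 row 2 had 13459.8, 15729, 17854 and 14945 normalized counts in the poGC-CT libraries and 12727, 11048, 11644 and 8783 in the poGC-KD libraries. It had 1339, 1295, 1569.7 and 1155 in the phGC-CT libraries and 506, 475, 559 and 638 in the phGC-KD libraries. Neither cell type showed an overlap, and in phGC the gap between the lowest CT library and the highest KD library was wider than the range of either group. Its KD level was 0.405 of control in phGC (log2 -1.30, SE 0.13, adjusted p = 0.000866) and 0.724 of control in poGC (log2 -0.47, SE 0.12, adjusted p = 0.0222). Without poGC-CT replicate 3, its highest library, the poGC value missed the threshold (log2 -0.40, adjusted p = 0.0519).

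CCL4 row 1 was a scarce transcript of poGC. It had 27.6, 46.4, 40.4 and 44.8 normalized counts in poGC-CT and 70.3, 61.7, 63.5 and 50.4 in poGC-KD, which did not overlap (log2 0.64, SE 0.21, adjusted p = 0.0483). The call was lost when any library but poGC-KD replicate 4 was left out (log2 0.50 to 0.71, adjusted p = 0.0618 to 0.114), and the rows of CCL4 thus had values of opposite sign in poGC. In phGC, 2.42 normalized counts in a single KD library were the only signal of row 1, and it was not tested there.

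CCL20, which draws lymphocytes and dendritic cells through CCR6, had 67.9, 73.1, 59.4 and 63.1 normalized counts in poGC-CT and 159, 146, 203 and 133 in poGC-KD. Its lowest KD library lay well above its highest CT library, and the level rose 2.46-fold (log2 1.3, SE 0.17, adjusted p = 0.000556). The call was lost in a common fit of the 16 libraries (adjusted p = 0.0731). In phGC CCL20 was close to the limit of detection, with 19.6, 19.8, 0 and 13.9 in CT and 12.4, 6.8, 13.8 and 8.45 in KD (log2 -0.35, SE 0.73, adjusted p = 0.794). The receptor CCR6 was among the rows under the minimum.

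The chicken has neighbouring genes that resemble mammalian CXCL8, a chemokine for neutrophils: IL8L1 and IL8L2. IL8L2 had 1111, 1275, 1187 and 1275 normalized counts in poGC-CT and 614, 714, 741 and 680.3 in poGC-KD, a fall without overlap (log2 -0.80, SE 0.071, adjusted p = 7.49e-05). In phGC it had 1756, 1481, 2544 and 1780.1 in CT and 1254, 1924, 1780.5 and 2027 in KD, and the groups overlapped (log2 -0.12, SE 0.19, adjusted p = 0.728). IL8L1 was lower throughout and passed the test in neither cell type (poGC log2 -0.17, SE 0.14, adjusted p = 0.417), nor did CXCR1, a receptor of CXCL8 in mammals (poGC log2 -0.30, SE 0.23, adjusted p = 0.378).

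The other chemokine ligands gave no KD call. CXCL12, the ligand of CXCR4 and CXCR7, had 567 ± 44.1 normalized counts in poGC-CT and 629 ± 42.2 in poGC-KD (SD, n = 4 libraries), and passed the test in neither cell type. CCL19, which binds CCR7, had 644 ± 113 and 604 ± 80.9 there, and CX3CL1, a chemokine anchored in the membrane, had 274 ± 50.6 and 203 ± 31.7. CX3CL1 passed as lower in poGC-KD without poGC-KD replicate 1 or poGC-CT replicate 2 (log2 -0.54 in both, adjusted p = 0.0405 and 0.0335).

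Among the chemokine receptors, both changes concerned receptors that take chemokines up and remove them. Of 10 tested in poGC, 1 rose and 1 fell, or 10% each beside 15.2 and 13.6 percent of all rows. Of 8 in phGC, 0 rose and 1 fell, the latter 12.5% beside 4.91 percent. ACKR4, the scavenger of CCL19, CCL21 and CCL25, had 1579, 1510.2, 1876 and 1679.6 normalized counts in poGC-CT and 967, 999, 1036 and 868 in poGC-KD. Its phGC values were 105, 65.5, 108 and 73.1 in CT and 41.7, 42.2, 23 and 14.5 in KD. In each cell type all KD libraries lay below all CT libraries, from a control level that was much higher in poGC. ACKR4 fell in poGC (log2 -0.76, SE 0.083, adjusted p = 0.000241) and in phGC (log2 -1.53, SE 0.36, adjusted p = 0.031). The phGC call was lost without phGC-KD replicate 3 or 4 and without any one of phGC-CT replicates 1 to 4 (log2 -1.65 to -1.31, adjusted p = 0.0509 to 0.088), while the poGC call was kept without each library in turn.

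CXCR7, also known as ACKR3, scavenges CXCL12. It had 44.9, 53.5, 46.7 and 55.6 normalized counts in poGC-CT and 113, 94.4, 102 and 73.3 in poGC-KD, and 141, 76.6, 128 and 117 in phGC-CT and 68.3, 77.5, 105 and 115 in phGC-KD. In poGC every KD library was above every CT library, and the level rose 1.94-fold (log2 0.95, SE 0.18, adjusted p = 0.00432). The phGC groups overlapped (log2 -0.35, SE 0.25, adjusted p = 0.413). CXCR4, the signalling receptor of the same ligand, had 87 ± 6.01 in poGC-CT and 85.6 ± 8.45 in poGC-KD (SD, n = 4 libraries), with log2 -0.00, SE 0.13, adjusted p = 0.989. CCR7, the signalling receptor of CCL19, stood at 22.8 ± 3.83 and 27.6 ± 7.35 (log2 0.29, SE 0.25, adjusted p = 0.445).

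The remaining chemokine receptors were rare. ACKR2, CCR4, CCR8, CCR9, CCR10, CXCR1 and CXCR5 had at most 107 normalized counts in a library, a value of ACKR2 in phGC-KD. Of these, CCR9 was tested for KD in neither cell type, and CCR10 and CXCR5 were not tested in phGC. CCR4 had 20.9, 16.1, 23.5 and 25.2 in phGC-CT and 35.5, 38.1, 32.2 and 25.4 in phGC-KD without overlap, but did not pass (log2 0.61, SE 0.26, adjusted p = 0.175).

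**Figure D3:**
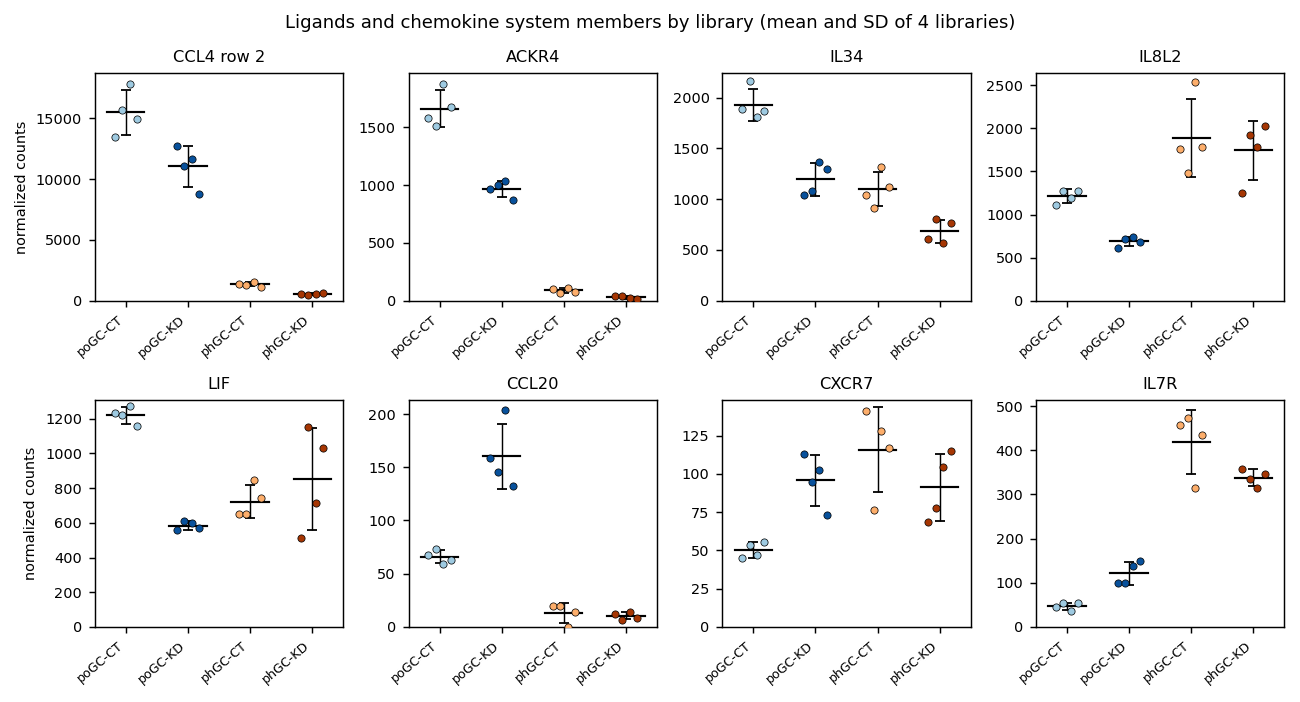
Normalized counts (linear axes from 0) of 8 members in the 16 libraries, with points for libraries and bars for the mean and SD of the 4 libraries of a group. CCL4 row 2, ACKR4 and IL34 are lower in KD in both cell types, whereas the KD points of CCL20, CXCR7 and IL7R lie above the CT points in poGC and overlap them in phGC.

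Of the interleukin ligands, IL34 alone passed the test, as lower in KD in both cell types. In poGC 0 rose and 1 fell of 12 tested, the latter 8.33% beside 13.6 percent of all rows. In phGC 0 rose and 1 fell of 7, the latter 14.3% beside 4.91 percent. IL34 is a ligand of CSF1R, the receptor through which macrophages are maintained. It had 1885, 2160.2, 1805 and 1865 normalized counts in poGC-CT and 1036, 1080.4, 1365 and 1299.6 in poGC-KD. In phGC it had 1038, 913, 1319 and 1121 in CT and 611, 801, 567 and 762 in KD. No overlap occurred in either cell type, and the phGC-CT level was close to that of poGC-KD. The falls were of like size, with log2 -0.67, SE 0.099, adjusted p = 0.00122 in poGC and log2 -0.69, SE 0.15, adjusted p = 0.0234 in phGC. The phGC call was lost without phGC-KD replicate 1 or 3 and without phGC-CT replicate 4 (log2 -0.68 to -0.61, adjusted p = 0.0603 to 0.0681).

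CSF1, the other ligand of CSF1R, had 909, 923, 1014 and 958 normalized counts in poGC-CT and 809.7, 741, 819.5 and 692 in poGC-KD, a small fall without overlap (log2 -0.29, SE 0.074, adjusted p = 0.0176). Its phGC values were 1913, 2000.2, 2529.5 and 2046 in CT and 1764, 1958, 1625 and 1842 in KD, where the groups overlapped (log2 -0.25, SE 0.1, adjusted p = 0.175). No gene row carried the symbol CSF1R, so that this receptor could not be analysed here. CSF3, the granulocyte factor, had at most 21.6 normalized counts in a library.

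LIF, a cytokine of the IL6 family that signals through LIFR and IL6ST, showed the largest fall among the members in poGC. It had 1235, 1219, 1272 and 1155 normalized counts in poGC-CT and 559, 608, 601 and 569.9 in poGC-KD. The KD libraries lay within a narrow band at 0.485 of control (log2 -1.04, SE 0.055, adjusted p = 6.33e-06). In phGC it had 648, 652, 846 and 743 in CT and 511, 1155, 715 and 1034 in KD, and the KD libraries spread to both sides of the CT libraries (log2 0.23, SE 0.24, adjusted p = 0.567). The other ligands of the family that were measured passed in neither cell type: IL6 had log2 0.05, SE 0.24, adjusted p = 0.895 in poGC and log2 -0.25, SE 0.29, adjusted p = 0.625 in phGC, and IL11 had log2 -0.09, SE 0.21, adjusted p = 0.787 and log2 0.09, SE 0.36, adjusted p = 0.894.

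The remaining interleukins gave no call. IL9, a T cell cytokine in mammals, was an abundant row here, with 4639.6 to 4828 normalized counts in poGC-CT and 4648 to 7783 in poGC-KD, where replicate 4 stood apart from the others at 4648 to 5024. In phGC, IL9 had 1182, 1061, 914 and 1229.5 in CT and 1513, 1268, 1518 and 1537 in KD without overlap and was just outside the threshold (log2 0.41, SE 0.11, adjusted p = 0.0504), which it passed without phGC-KD replicate 2 (log2 0.47, adjusted p = 0.0415) or phGC-CT replicate 1 (log2 0.44, adjusted p = 0.0471). IL18, an activator of interferon production, had 1176 ± 121 and 1149.6 ± 115 in poGC-CT and poGC-KD (SD, n = 4 libraries). IL7, IL12A, IL12B, IL16, IL17B, IL17C and IL23A had at most 170.2 normalized counts in a library. Of these, IL7, IL12A, IL12B, IL16 and IL17C were not tested for KD in phGC.

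Of 25 interleukin receptors tested in poGC, 4 rose and 2 fell, or 16% and 8% beside 15.2 and 13.6 percent of all rows. Of 23 tested in phGC, 6 rose and 0 fell, or 26.1% beside 5.06 percent, and these were the only members that rose there. This share changed when single libraries were left out, and that of all rows in the same fits was not determined. In 8 fits that each left out 1 library, IL4R lost its call in 7, IL12RB2 in 6 and IL6ST in 3. The calls of IL13RA2, IL31RA and IL1RAP were kept in all 8. The summed granulosa list was likewise higher in phGC-KD, by the values given above, and its part was not tested. The receptors are described below by the signalling chain they share.

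IL6ST (GP130), the chain shared by the IL6 family, had 5581, 5062, 4033 and 4778 normalized counts in phGC-CT and 8565, 6532, 7284 and 6465 in phGC-KD. All KD libraries were above all CT libraries, and the level rose 1.48-fold (log2 0.56, SE 0.12, adjusted p = 0.021). Without phGC-KD replicate 3, phGC-CT replicate 2 or phGC-CT replicate 4 the rise was outside the threshold (log2 0.55 to 0.58, adjusted p = 0.0518 to 0.0663). In poGC the value was 4369 ± 230.0 in CT and 4230.3 ± 326 in KD (SD, n = 4 libraries), with log2 -0.03, SE 0.065, adjusted p = 0.8. IL6RA, the chain that binds IL6, had log2 0.19, SE 0.11, adjusted p = 0.254 in poGC and log2 0.01, SE 0.15, adjusted p = 0.967 in phGC.

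IL31RA, a relative of IL6ST that pairs with OSMR to bind IL31 in mammals, lies near IL6ST in the RefSeq gene order with 1 protein-coding gene between them. It had 179, 212, 159.9 and 161 normalized counts in poGC-CT and 256, 339, 260.4 and 345 in poGC-KD. Its phGC values were 375, 266, 226 and 365 in CT and 781, 851, 658 and 641 in KD. KD was above CT without overlap in both cell types, by 1.7-fold in poGC (log2 0.77, SE 0.15, adjusted p = 0.00448) and 2.37-fold in phGC (log2 1.25, SE 0.18, adjusted p = 0.0043), and each call was kept without any single library. Of the partner chains outside the name rule, OSMR rose in phGC (log2 1.14, SE 0.16, adjusted p = 0.00345) and LIFR rose in phGC (log2 0.60, SE 0.15, adjusted p = 0.0354). In poGC, OSMR had log2 0.18, SE 0.2, adjusted p = 0.548 and LIFR had log2 0.22, SE 0.08, adjusted p = 0.0767.

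Of the receptors of IL4 and IL13, IL13RA1 fell in poGC, whereas IL4R and IL13RA2 rose in phGC. IL13RA1, which joins IL4R in the receptor for both cytokines, had 8274, 7741, 7712 and 7717 normalized counts in poGC-CT and 5122, 5485, 5227 and 5698 in poGC-KD. It fell to 0.694 of control there without overlap (log2 -0.53, SE 0.045, adjusted p = 6.39e-05). In phGC it had 2633 ± 140.0 in CT and 2363 ± 53.3 in KD (SD, n = 4 libraries). The phGC groups did not overlap either, at 2476 to 2806 in CT and 2309 to 2436 in KD. The smaller phGC difference did not pass (log2 -0.16, SE 0.061, adjusted p = 0.134), but it passed in a common fit of the 16 libraries. IL4R had 1524, 1389.9, 1474 and 1422 in phGC-CT and 1679.9, 1896, 1654 and 1899 in phGC-KD, a small rise without overlap (log2 0.29, SE 0.075, adjusted p = 0.0436). This call held only without phGC-CT replicate 1 when libraries were left out one at a time and was lost in the other 7 cases (log2 0.25 to 0.32, adjusted p = 0.063 to 0.135), and IL4R in poGC had log2 -0.02, SE 0.048, adjusted p = 0.766.

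IL13RA2, a decoy receptor for IL13 in mammals, had 75.8, 69.2, 131 and 106 normalized counts in phGC-CT and 309, 319.6, 301 and 350.2 in phGC-KD. The KD libraries were tightly grouped and each was far above the highest CT library, a rise of 3.34-fold (log2 1.74, SE 0.21, adjusted p = 0.00214) that was kept without each library in turn. In poGC it was rare, with 3.45, 22.3, 13.5 and 6.64 in CT and 18.4, 26.5, 29.6 and 38 in KD, and the groups overlapped (log2 1.29, SE 0.5, adjusted p = 0.0876) unless poGC-CT replicate 2 was left out (log2 1.80, adjusted p = 0.0289). Their ligands IL4 and IL13 were among the rows under the minimum.

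Within the IL1 receptor family, IL1RAP rose in both cell types and IL1RAPL2 in poGC. IL1RAP, the chain that IL1R1, IL1RL1 and IL1RL2 need to signal, had 755, 692, 742 and 622 normalized counts in poGC-CT and 1005, 1127, 1063 and 969 in poGC-KD. In phGC it had 893, 831, 874 and 823 in CT and 1153, 1098, 1135 and 1256 in KD. Both cell types showed a rise without overlap, by 1.5-fold in poGC (log2 0.59, SE 0.08, adjusted p = 0.000831) and 1.35-fold in phGC (log2 0.43, SE 0.076, adjusted p = 0.00944), and both calls were kept without each library in turn. IL1RAPL2, a related protein known from nerve cells in mammals, had 141, 91.8, 129.8 and 141 in poGC-CT and 230.0, 195, 263 and 271 in poGC-KD. It rose 1.93-fold there without overlap (log2 0.95, SE 0.17, adjusted p = 0.00386), and in phGC it had 297, 329.9, 293 and 262 in CT and 405, 397, 505 and 328 in KD (log2 0.46, SE 0.15, adjusted p = 0.0807). IL1RAPL1, its closest relative, passed in neither (poGC log2 -0.08, SE 0.31, adjusted p = 0.886 and phGC log2 0.16, SE 0.24, adjusted p = 0.707), and the accessory chain IL18RAP was not tested for KD.

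IL1RL1, by far the highest interleukin receptor in FPKM, had 10689.8, 11132, 9819.9 and 10741 normalized counts in poGC-CT and 9937, 11544, 12239.6 and 12919 in poGC-KD, and the groups overlapped (log2 0.16, SE 0.075, adjusted p = 0.161), with a call as higher in KD once poGC-KD replicate 1 was left out (log2 0.21, adjusted p = 0.0323). Its phGC values were 3947, 4124, 4206 and 4104 in CT and 4040.4, 4669, 5046 and 4481 in KD (log2 0.15, SE 0.072, adjusted p = 0.229). IL1R1, the signalling receptor of IL1, varied widely within poGC, with 243, 153, 581 and 658 in CT and 320.4, 798, 872 and 1046 in KD (log2 0.91, SE 0.5, adjusted p = 0.216). In the RefSeq gene order IL1R2, IL1R1, IL1RL2, IL1RL1, IL18R1 and IL18RAP follow each other without another protein-coding gene, and of these 6 none that was tested passed the KD test with all libraries. The antagonists IL1RN and IL36RN had log2 0.07, SE 0.35, adjusted p = 0.902 and log2 0.53, SE 0.36, adjusted p = 0.318 in poGC, and log2 0.11, SE 0.2, adjusted p = 0.754 and log2 0.51, SE 0.16, adjusted p = 0.0765 in phGC.

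IL12RB2, a chain of the IL12 receptor, had the largest log2 fold change of phGC, and it was uneven. It had 122, 92.7, 112 and 119.7 normalized counts in phGC-CT and 595, 99.3, 585 and 506 in phGC-KD. Replicate 2 of phGC-KD was at the control level while the other KD libraries were far above all control libraries, so that the groups overlapped (log2 2.0, SE 0.47, adjusted p = 0.0306). The call was kept without phGC-KD replicate 2 or phGC-CT replicate 1 and lost without any one of the other 6 libraries, namely phGC-KD replicates 1, 3 and 4 and phGC-CT replicates 2, 3 and 4 (log2 1.83 to 2.03, adjusted p = 0.0712 to 0.0902). In poGC it had 115, 154, 146 and 164 in CT and 139, 108, 98.8 and 108 in KD (log2 -0.33, SE 0.16, adjusted p = 0.17). IL23R, its neighbour in the RefSeq gene order, passed in neither cell type (log2 -0.05, SE 0.069, adjusted p = 0.655 in poGC and log2 0.20, SE 0.14, adjusted p = 0.411 in phGC), and the partner chain IL12RB1 was under the minimum.

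IL7R, which binds IL7 on developing lymphocytes, showed the largest rise among the members in poGC. It had 44.9, 53.5, 35.6 and 53.1 normalized counts in poGC-CT and 98.7, 98.8, 137 and 149 in poGC-KD. Each KD library was above each CT library, and the level rose 2.62-fold (log2 1.39, SE 0.21, adjusted p = 0.00136). In phGC, where its control level was higher, it had 458, 473, 313 and 433 in CT and 357, 335, 314 and 347 in KD, and the groups overlapped (log2 -0.32, SE 0.14, adjusted p = 0.189). Without phGC-CT replicate 3, the lowest control, it passed as lower in phGC-KD (log2 -0.44, adjusted p = 0.0381). IL2RG, the partner chain of IL7R, had at most 39.2 normalized counts in a library, and IL7 had log2 -0.41, SE 0.27, adjusted p = 0.292 in poGC.

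In the IL17 receptor family, IL17RD fell in poGC. IL17RD, which is also known as an inhibitor of fibroblast growth factor signalling, had 230.1, 212, 249 and 251 normalized counts in poGC-CT and 161, 143, 143 and 148 in poGC-KD, without overlap (log2 -0.64, SE 0.1, adjusted p = 0.00203). In phGC it had 87.6, 64.2, 54.8 and 73.1 in CT and 67.4, 57.1, 87.4 and 39.9 in KD (log2 -0.15, SE 0.27, adjusted p = 0.753). IL17RA, the common chain of the family, was abundant, with 6393, 6006, 6924 and 6456 in poGC-CT and 7021, 7127, 6716 and 7219 in poGC-KD (log2 0.14, SE 0.05, adjusted p = 0.0615), and it passed as higher only without poGC-CT replicate 3 (log2 0.17, adjusted p = 0.0410). It had 4715 ± 292 in phGC-CT and 4909.8 ± 378 in phGC-KD (SD, n = 4 libraries), with log2 0.05, SE 0.073, adjusted p = 0.683. IL20RA, a chain of the IL20 receptor, had 62.8, 77.8, 92.7 and 69.3 in phGC-CT and 133, 124, 127 and 97.8 in phGC-KD without overlap and missed the threshold (log2 0.66, SE 0.19, adjusted p = 0.0578).

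TNFAIP3, also called A20, removes ubiquitin chains from NF-kB signalling proteins and restrains the pathway. It had 2448, 1609, 3041 and 2719 normalized counts in poGC-CT and 2525, 1491, 2156 and 1916 in poGC-KD (log2 -0.26, SE 0.22, adjusted p = 0.422), and did not pass in phGC either (log2 0.09, SE 0.16, adjusted p = 0.753). IL4I1, a secreted amino acid oxidase, had log2 -0.15, SE 0.23, adjusted p = 0.679 in poGC and was not tested in phGC.

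**Figure D4:**
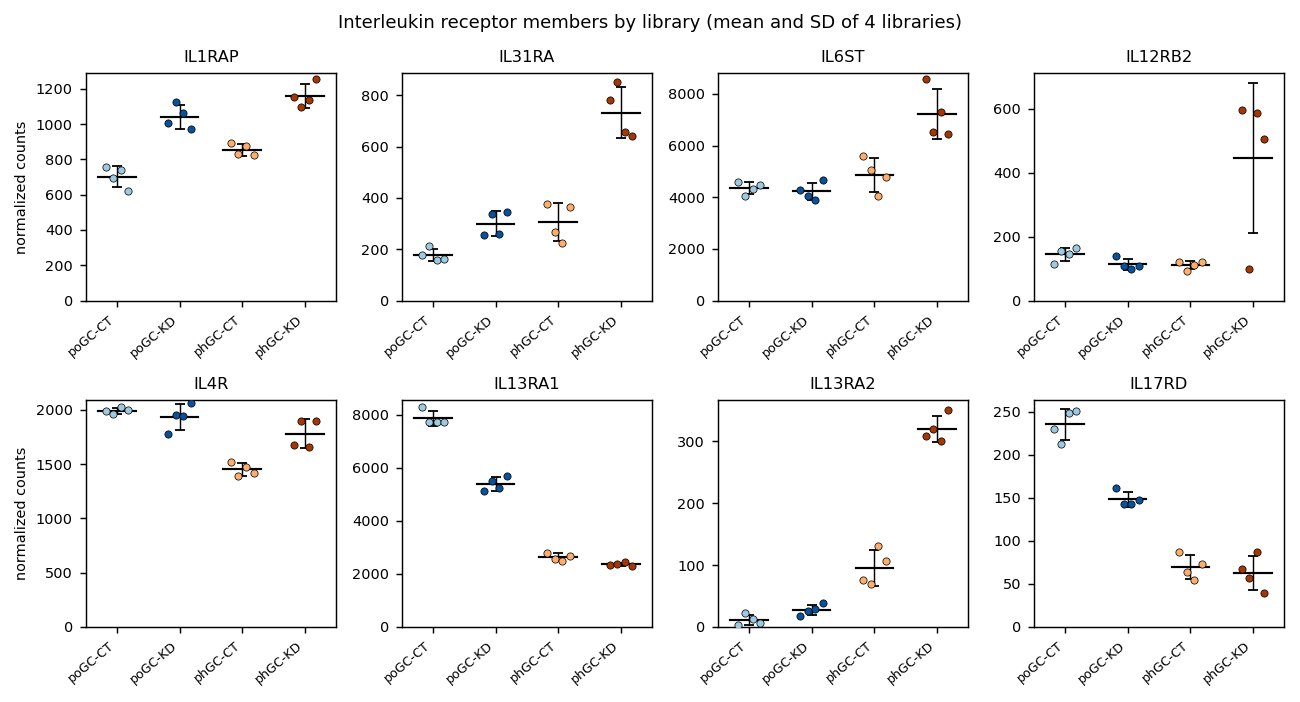
Normalized counts (linear axes from 0) of 8 interleukin receptor genes in the 16 libraries, with points for libraries and bars for the mean and SD of the 4 libraries of a group. IL1RAP and IL31RA are higher in KD in both cell types, and phGC-KD replicate 2 of IL12RB2, at 99.3, lies among the control libraries.

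The members that changed in both cell types were ACKR4, CCL4 row 2 and IL34, which fell, and IL1RAP and IL31RA, which rose. These 5 had the same direction in both and made up 33.3% of the members called in poGC and 55.6% of those called in phGC. Among all rows tested, 28.8 percent were called in poGC and 9.97 percent in phGC. How many rows were called in both was not determined, so the overlap is not shown to be particular to the members. Comp. poGC and comp. phGC share no library.

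To find where the response depended on the cell type, the difference between both KD effects was tested as an interaction over the 16 libraries. It passed for 8 of 63 members, or 12.7%, 3 higher and 5 lower in poGC than in phGC, beside 9.25 percent of all rows (4.47 percent higher and 4.78 percent lower). These 63 include members with too few phGC counts for the KD test there, in which 49 were tested. For IL12A, without a count in phGC, the difference could not be estimated (SE 535). The effect on IL7R was more positive in poGC by 1.68 on the log2 scale (SE 0.25, adjusted p = 0.000569), and that on CXCR7 by 1.27 (adjusted p = 0.0178). For CCL4 row 2, which fell in both, the difference was 0.81 (adjusted p = 0.0103), that is a deeper fall in phGC. Negative differences were found for IL12RB2 (log2 -2.35, SE 0.53, adjusted p = 0.011) and LIF (log2 -1.30, SE 0.26, adjusted p = 0.00497). Smaller negative differences were found for IL6ST (-0.61, adjusted p = 0.0142), IL13RA1 (-0.39, adjusted p = 0.00209) and IL4R (-0.34, adjusted p = 0.0203). The IL4R difference was outside the threshold without phGC-CT replicate 2 (log2 -0.31, adjusted p = 0.0505).

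For other members that passed in 1 cell type or in both, the difference itself did not pass. CCL20 had a difference of 1.63 (adjusted p = 0.216), IL8L2 of -0.70 (adjusted p = 0.0615) and ACKR4 of 0.74 (adjusted p = 0.192). The IL8L2 difference passed without phGC-KD replicate 1 (-0.84, adjusted p = 0.0142) or phGC-CT replicate 3 (-0.87, adjusted p = 0.00827), and that of CCL20 without phGC-CT replicate 3 (2.04, adjusted p = 0.00188). IL13RA2 (-0.48), CSF1 (-0.07), IL17RD (-0.51) and IL1RAPL2 (0.46) likewise gave no call, with adjusted p from 0.263 to 0.813.

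Genes that carry these signals inside the cell were read from lists compiled by hand. In the NF-kB list, 7 genes rose and 3 fell of 45 tested in poGC (median log2 fold change 0.03), that is 15.6% and 6.67% beside 15.2 and 13.6 percent of all rows, and 1 rose and 0 fell of 42 in phGC (median 0.08), 2.38% beside 9.97 percent called in either direction. In poGC the rises were led by TNIP3, an inhibitor of NF-kB (log2 2.36, SE 0.2, adjusted p = 6.6e-05), and by REL, an NF-kB subunit (log2 0.66, SE 0.047, adjusted p = 2.54e-05). NFKB1, the precursor of another subunit, rose slightly (log2 0.26, SE 0.053, adjusted p = 0.00714), while BIRC2, a ubiquitin ligase at the TNF receptor, fell (log2 -0.52, SE 0.035, adjusted p = 1.79e-05). The single call of phGC was IRAK4, the kinase below the IL1 receptors (log2 0.49, SE 0.08, adjusted p = 0.00714). The response of TNIP3 was higher in poGC than in phGC (log2 2.03, SE 0.29, adjusted p = 0.000519).

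In the JAK-STAT list, 7 genes rose and 4 fell of 24 tested in poGC (median -0.04), 29.2% and 16.7% beside the same 15.2 and 13.6 percent, and 1 rose and 0 fell of 23 in phGC (median 0.16), 4.35% beside 9.97 percent. The SOCS inhibitors of cytokine signalling differed among themselves in poGC. SOCS1 (log2 -0.63, SE 0.052, adjusted p = 5.32e-05) and SOCS3 (log2 -0.48, SE 0.06, adjusted p = 0.000481) fell, SOCS4, SOCS5 and SOCS6 rose by 0.36, 0.19 and 0.28 on the log2 scale (adjusted p = 0.0178, 0.0267 and 0.0235), and SOCS2, SOCS7 and the related CISH did not pass (adjusted p = 0.569, 0.721 and 0.569). STAT3, the factor that IL6ST activates, fell little (log2 -0.15, SE 0.031, adjusted p = 0.00808), and STAT6, the factor of IL4R, rose in poGC (log2 0.30, SE 0.074, adjusted p = 0.0166) and in phGC (log2 0.48, SE 0.083, adjusted p = 0.00893). The effect on SOCS3 was lower in poGC than in phGC (log2 -0.74, SE 0.12, adjusted p = 0.00139).

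Of 20 tested cytokine receptors and ligands outside the name rule, 2 rose and 5 fell in poGC (median -0.08), or 35% beside 28.8 percent of all rows, and 2 rose and 4 fell in phGC (median -0.11), or 30% beside 9.97 percent. FAS, a death receptor, fell in poGC (log2 -1.06, SE 0.079, adjusted p = 2.98e-05) and in phGC (log2 -0.67, SE 0.1, adjusted p = 0.00492), as did MIF, a cytokine that retains macrophages (log2 -0.65, SE 0.11, adjusted p = 0.00294 and log2 -0.74, SE 0.11, adjusted p = 0.00484). KITLG, the granulosa ligand of the KIT receptor, rose in poGC (log2 0.82, SE 0.089, adjusted p = 0.000241), and its effect differed from that in phGC (log2 0.93, SE 0.18, adjusted p = 0.00367).

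To compare the follicle stages, the groups that had received NC-siRNA were set against each other. Between poGC-CT and phGC-CT, 42 of 58 members differed (72.4%, beside 64 percent of all rows), 31 higher in poGC-CT and 11 lower. By direction these were 53.4% beside 32.5 percent and 19% beside 31.5 percent. The higher share is not independent of the count minimum. CCL4 row 1, IL12A, CCL19, IL7 and IL4I1, all higher in poGC-CT, had at most 14 counts summed over the phGC-CT libraries. They met the minimum through poGC counts. So did IL5RA, with 24 counts summed over the phGC-CT libraries and 171 over the poGC-CT libraries. The poGC-CT libraries were also deeper, at 36191442 to 53062138 counts against 30476674 to 32997177. The median log2 difference of the members was 0.51 in favour of poGC-CT, against 0.0036 over all rows, and the groups did not overlap for 42 members, beside 60.5 percent of all rows. Follicle stage and culture set cannot be told apart here. The summed leukocyte list was higher in poGC-CT, and the summed granulosa and theca and stroma lists were higher in phGC-CT, by the values given above. The granulosa sum followed AMH, at 1594 CPM in phGC-CT and 49.2 in poGC-CT. By gene, 7 of 13 granulosa markers were called higher in poGC-CT and 5 lower. The theca and stroma sum followed COL3A1, at 4332 against 962 CPM, with 2 genes of 10 tested higher in poGC-CT and 6 lower. The part of these lists was not tested. This comparison uses the same CT libraries as the KD comparisons, so that its values are not independent of theirs.

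All 8 chemokine ligands tested differed, 6 higher and 2 lower in poGC-CT, or 75% and 25% beside 32.5 and 31.5 percent of all rows. Among the 6, CCL19 and CCL4 row 1 met the count minimum through poGC counts, so that this share is not independent of the minimum. CCL19 had 488, 649, 755 and 684 normalized counts in poGC-CT against 7.84, 3.71, 6.53 and 0 in phGC-CT (log2 7.12, SE 0.45, adjusted p = 2.12e-06). CCL4 row 1 had no count in phGC-CT and was at least 41.6-fold higher in poGC-CT, with 3 counts over the 4 phGC-CT libraries as the floor. CCL4 row 2 (3.52), CXCL12 (3.14), CCL20 (2.28) and IL8L1 (2.16) were higher as well, with adjusted p from 5.79e-08 to 0.0129. IL8L2 (log2 -0.65, SE 0.15, adjusted p = 0.0049) and CX3CL1 (log2 -0.50, SE 0.17, adjusted p = 0.0267) were lower, so that the neighbouring genes IL8L1 and IL8L2 differed in opposite directions. The CX3CL1 difference missed the threshold without phGC-CT replicate 1 or 2 or poGC-CT replicate 1, 2 or 4 (log2 -0.38 to -0.51, adjusted p = 0.0502 to 0.0627).

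Of 9 chemokine receptors tested, 3 were higher and 1 was lower in poGC-CT, or 33.3% and 11.1% beside 32.5 and 31.5 percent of all rows. ACKR4 led with log2 4.23, SE 0.18, adjusted p = 1.87e-07, which is 18.8-fold, from the library values given above. CXCR4 (0.90) and CCR4 (0.92) were higher by less, and CXCR7 was lower (log2 -1.21, SE 0.22, adjusted p = 0.0012). CXCR4 and CXCR7, which bind CXCL12 for signalling and for removal, thus differed in opposite directions between the stages.

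Of 10 interleukin ligands tested, 7 were higher in poGC-CT and 0 were lower, or 70% and 0% beside 32.5 and 31.5 percent of all rows. Among the 7, IL7 and IL12A met the count minimum through poGC counts, so that this share is not independent of the minimum. IL7 had 93.2, 85.6, 170.2 and 132 normalized counts in poGC-CT and 2.61, 3.71, 3.92 and 2.52 in phGC-CT (log2 5.17, SE 0.34, adjusted p = 2.62e-06). IL12A, the subunit that makes IL12 together with IL12B, had 13.8, 28.5, 30.9 and 38.2 in poGC-CT and none in phGC-CT, which is at least 29.1-fold with the same floor. IL12B was higher too (log2 1.78, SE 0.45, adjusted p = 0.00685). IL18, IL9, IL6 and IL34 were higher by 2.73, 2.1, 1.59 and 0.80 on the log2 scale. The phGC-CT libraries of IL18 were uneven, at 318, 34.6, 162 and 193. LIF was higher in poGC-CT (log2 0.75, SE 0.094, adjusted p = 0.000135) and CSF1 was lower (log2 -1.17, SE 0.094, adjusted p = 8.89e-06).

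Of 25 interleukin receptors tested, 12 were higher and 7 were lower in poGC-CT, or 48% and 28% beside 32.5 and 31.5 percent of all rows. Among the 12, IL5RA met the count minimum through poGC counts, so that this share is not independent of the minimum. The lower ones were led by IL7R, with log2 -3.17, SE 0.2, adjusted p = 1.87e-06, and by IL13RA2, with log2 -3.03, SE 0.5, adjusted p = 0.000698. Receptor and ligand thus stood apart in the IL7 system, with IL7 higher and IL7R lower in poGC-CT. IL22RA1, a receptor chain of epithelia, had 32.2, 33, 74.4 and 33.2 normalized counts in poGC-CT and 91.5, 219.9, 155 and 86.9 in phGC-CT (log2 -1.68, SE 0.41, adjusted p = 0.00585), and IL1RAPL2 was lower with log2 -1.24, SE 0.16, adjusted p = 0.000189. Among the higher receptors were IL13RA1 (1.57), IL1RL1 (1.36), IL17RD (1.74) and IL23R (1.56). The call of IL10RA as higher (log2 0.57, SE 0.18, adjusted p = 0.019) was lost without poGC-CT replicate 1 (log2 0.53, adjusted p = 0.0503) or 4 (log2 0.47, adjusted p = 0.0595). IL6ST passed as lower in poGC-CT without phGC-CT replicate 3 (log2 -0.25, adjusted p = 0.0150), and IL12RB2 as higher without poGC-CT replicate 1 (log2 0.46, adjusted p = 0.0365). IL4I1 had 71.3, 51.7, 79.2 and 90.5 in poGC-CT and 0, 6.18, 0 and 11.3 in phGC-CT (log2 4.0, SE 0.78, adjusted p = 0.00181), and TNFAIP3 was higher in poGC-CT by 10.1-fold (log2 3.34, SE 0.21, adjusted p = 2.23e-06).

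**Figure D5:**
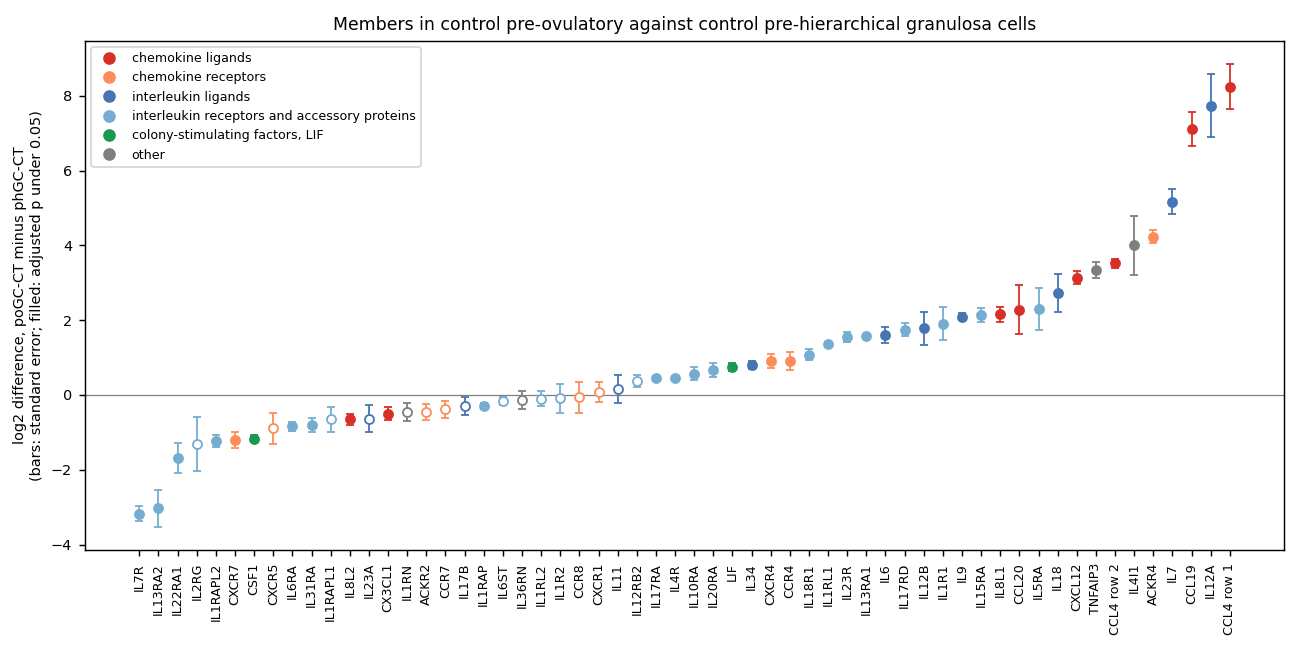
Log2 difference of poGC-CT minus phGC-CT for the 58 members tested, in order of size and coloured by role, with bars for the standard error and filled points for an adjusted p under 0.05. The values of CCL4 row 1 and IL12A, which had no count in phGC-CT, depend on the prior of the fit, and the ends among the others are IL7R (-3.17) and CCL19 (7.12).

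Between the control groups, 64.4% of the NF-kB genes, 60.9% of the JAK-STAT genes and 60% of the other cytokine receptors and ligands were called in either direction, near the 64 percent of all rows. By direction the lists departed from the 32.5 percent of all rows that were higher and the 31.5 percent that were lower. Of 45 NF-kB genes, 21 were higher and 8 lower in poGC-CT (median 0.35), or 46.7% and 17.8%. Among the higher ones were TLR15, a receptor for microbial products (log2 8.59, SE 0.55, adjusted p = 4.52e-05), and TLR3, which binds double-stranded RNA (log2 6.86, SE 0.64, adjusted p = 2.07e-05). Both had too few counts in phGC to be tested for KD there, so that the sizes of these differences are not firm. Of 23 JAK-STAT genes, 12 were higher and 2 lower (median 0.59), or 52.2% and 8.7%. Of 20 other cytokine receptors and ligands, 5 were higher and 7 lower (median 0.11), or 25% and 35%.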

How the data were processed

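RNA-Seq of 16 libraries of chicken granulosa cells was analysed, 4 for each cell type and siRNA, grouped by the titles in the labels. For each library the authors deposited a raw count of reads per gene row, without normalization, and an FPKM value, scaled by the authors for transcript length and for depth. As the study's methods describe, reads were mapped to the Ensembl assembly Gallus_gallus-5.0 with TopHat2, while the submitters' processing notes name HISAT2 2.1.0, StringTie 1.3.4d and DESeq2 1.26.0. The counting program, its annotation and its strand setting are not given in the sources used here. Symbols are shared by several rows in 187 of 18151 rows, which were tested apart. Values of rows that share a symbol, such as the CCL4 rows, are therefore uncertain.

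All tests used the counts. KD was compared with CT within each cell type, poGC-CT with phGC-CT, and the difference of both KD effects over the 16 libraries. The test was the quasi-likelihood test of edgeR (version 4.0.16 under R 4.3.3) with TMM normalization and filterByExpr, and p-values were adjusted by Benjamini-Hochberg over all rows tested. The standard error (SE) is the log2 fold change divided by the square root of the F statistic. CPM were computed from the counts for marker lists only, and FPKM values served only to compare levels between genes. Precision is given by the spread between libraries, which includes counting error. The steps were tested on simulated data. The alternatives were upper-quartile normalization, DESeq2 (1.42.0), no filter on low counts, a block for the replicate number, a stricter minimum of 10 counts per library throughout, the 16 libraries in a common fit, an unadjusted p under 0.05 with a fold change above 1.5, deposited FPKM, and leaving out each library in turn.

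Library values are given for members called in a KD comparison or in the interaction with a mean of at least 20 normalized counts in the higher group (up to 8 risen and 8 fallen per KD comparison), for the 6 members of highest mean FPKM, and for the 6 largest differences in each direction between the CT groups. Known ligands or receptors of these could also be named, and IL9, IL20RA, CCR4 and IL10RA were named after their values were seen. Members and lists were chosen with earlier results of these data known, and the lists of pathways and markers were compiled by hand. Gene order and synonyms are from RefSeq (GRCg7b), in which 60 of 64 member symbols were found, and since the build differs no coordinates are given. Promoters and proteins were not analysed here.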

Additional observations from a re-analysis of the deposited data

Results flagged for a closer look

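In 3 of 101 groups of 4 libraries, a library of a named member stood apart from the others of its group, and chance alone marks about 1 group in 20 in this way. CCL4 row 1 had 2.42 normalized counts in phGC-KD replicate 4 and none in the other phGC-KD libraries. This was 2 counts, and with 3 libraries at 0 any count is marked, so that the rate above does not apply to it. IL13RA1 had 8274 in poGC-CT replicate 1, against 7712 to 7741 in the other poGC-CT libraries. IL22RA1 had 74.4 in poGC-CT replicate 3, against 32.2 to 33.2 in the others.

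The KD effect differed between poGC and phGC for 8 members by the interaction term of edgeR's quasi-likelihood test. It was higher in poGC for IL7R (log2 difference 1.68), CXCR7 (1.27) and CCL4 row 2 (0.81). It was lower in poGC for IL12RB2 (-2.35), LIF (-1.30), IL6ST (-0.61), IL13RA1 (-0.39) and IL4R (-0.34). For IL12RB2, phGC-KD replicate 2 remained at the control level, and without it the difference was -2.69. The cause of these differences was not tested.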

How the results depend on the processing

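Numbers of called members were within 1.5 times the reported ones under nearly all alternatives. The exceptions were in comp. phGC, where 9 members passed: with the replicate number as a block 5 passed (ACKR4, IL34, IL4R and IL12RB2 were lost), and without single libraries 4 to 9 passed. Leaving out single libraries gave 14 to 16 calls in comp. poGC, 7 to 10 in the interaction and 40 to 43 between the CT groups. The block gave 14, 9 and 42 calls there. Libraries of the same number did not resemble each other (correlations of -0.071 to 0.092 after subtraction of the group means, none over 0.1), so that the number is no shown pairing. DESeq2 called 14 members in poGC, 13 in phGC, 10 in the interaction and 42 between the CT groups. For the fits with a block, without a library or by DESeq2, the share of all rows called was not determined. Over the named members, 744 values were recomputed, of which 685 were kept, 54 lost the call, 5 moved and 0 reversed. A value was kept where direction and side of the threshold stayed the same. Deposited FPKM carry no test. There a log2 ratio was kept if it lay within a pooled SD of log2 normalized counts from the reported value, and moved if not. CCL4 row 1 lost its call in 12 of 16 alternatives in poGC, IL4R in 11 of 16 in phGC, and CCL20 in poGC in the single fit of all libraries (adjusted p = 0.0731). With at least 10 counts required in every library, 9 of the members that differed between the CT groups were not tested. All of these except IL13RA2 were higher in poGC-CT. Depth limits the members near 0 in phGC, where 49 of the 65 members were tested for KD. CCL4 row 1, CCL19, IL7 and IL12A were among those that could not be tested there.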
